A study of Mus musculus with 10 samples.

Results

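The comparison of perinatal low protein (LP) with perinatal normal protein (NP) in the adult mouse brain rested on 5 pairs of RNA sequencing libraries, which use all 10 libraries of the series. All mice were of the CF1 stock (labelled crlfcen:CF1) and were sampled on postnatal day 56. Both parents were put on the NP or the LP diet at mating, and the dams kept that diet while pregnant and while nursing. From weaning on postnatal day 21 the offspring of both groups received the NP diet for 5 weeks, so no mouse was on the LP diet when the brain was taken. A pair is an LP and an NP library of the same region and sex: male prefrontal cortex, male hippocampus, female prefrontal cortex, female hippocampus and male hypothalamus. Values below are given in this order. Each combination has 1 library, and no female hypothalamus was analysed here. The labels say neither whether a library is 1 animal or a pool nor whether the regions come from the same animals. The p-values therefore speak only of these pairs. They use the spread of the diet difference between pairs, weighted by counts and moderated over genes, and they are too small if regions share animals. A small p-value does not by itself mean that the pairs agree, since a pair with most of a gene's counts can carry it, as for Hcrt below.

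The libraries held 7871010 to 16265481 counts. The NP library of female hippocampus, the one with the fewest, holds no counts past Park7 on chromosome 4 or on chromosomes 5 to 9, X, Y and M. Genes located there were treated as missing in it and rest on 4 pairs. Levels are counts scaled to library size (CPM). Differences are LP minus NP on the log2 scale from a fit with the pair as a block, with the standard error (SE). A gene was called when edgeR's quasi-likelihood test gave an adjusted p below 0.05 over all genes tested. The transcripts of Xist and Ddx3y matched the labelled sex in 9 libraries and could not be read in the incomplete one.

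Protein shortage before birth and during nursing is a standard model of early malnutrition, and the brain is examined here after a period of normal feeding. Several of the gene groups described below respond within minutes to hours. Immediate early genes are transcribed in neurons soon after synaptic activity, and many of them encode transcription factors. Heat shock proteins refold damaged proteins in the cytosol under the control of heat shock factor. Chaperones of the endoplasmic reticulum are raised by the unfolded protein response when that compartment is loaded with proteins. Globin transcripts in brain tissue come mainly from red blood cells that remain in its vessels.

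Diet differences shared by the pairs were found in 236 of 17547 genes tested, which is 1.34%. Of these, 164 genes were higher in LP (0.935% of those tested) and 72 were lower (0.41%), and 2437 genes had an unadjusted p below 0.05. The called differences were mostly small. The median was 0.43 on the log2 scale among the higher genes and -0.56 among the lower genes, and 130 of the 236 differed by less than 0.5. For 207 of the 236 the ratio had the same sign in every measured pair, against 15.4% of all genes tested, a comparison that the call itself favours. Leaving out the male hippocampus pair left 95 calls (83 of them among the 236), and leaving out the female prefrontal cortex pair left 96 (87 among the 236). Of the 236 genes 76 rest on 4 pairs, and for these the fit without female hippocampus takes out no pair. Across 7064 genes with at least 10 CPM on average, measured in all 5 pairs, the log2 ratios of any 2 pairs had Pearson correlations between -0.19 and 0.32. These correlations describe genes, not replicates. With DESeq2 115 genes were called, and 4 when the pairing was ignored.

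Immediate early transcription factors of the AP-1, Egr and Nr4a families were higher in LP. Of 26 listed factors 14 rose, 0 fell and 12 did not pass. The members of this and the other lists were chosen with earlier results of these data known. Counts over a list are therefore descriptions and not independent support. The difference was above 0 for all 26, with a median of 0.45 on the log2 scale, while the median over all tested genes was -0.00073. Nr4a2, an orphan nuclear receptor gene on chr2:57106830-57124003 (GRCm38), stood at 29.2, 69.9, 19.8, 63.2 and 11.6 CPM in the NP libraries. In the LP libraries it stood at 74.4, 122, 50.1, 98.4 and 24.3 CPM. The levels of the groups overlap because regions differ, but in each pair the LP library was the higher one. The fitted rise was 1.99-fold (log2 0.99 ± 0.09 SE, 5 pairs, adjusted p = 0.000152). Its relative Nr4a3 rose 1.72-fold (0.78 ± 0.10, adjusted p = 0.00291), with pair ratios between 0.41 and 1.37.

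Among the AP-1 subunits, Fosl2 had 101, 63.5, 81.8 and 31.5 CPM in the 4 NP libraries that measured it, and 190, 105, 184 and 51.0 CPM in their LP partners. It rose 1.85-fold (log2 0.89 ± 0.07, 4 pairs, adjusted p = 2.66e-05), the smallest p of the list. Fosb rose 1.95-fold (0.96 ± 0.12), from 79.3, 17.5, 49.9 and 10.6 CPM to 132, 44.6, 124 and 13.2 CPM. Its hypothalamic ratio, 0.31, was well below the others (0.73 to 1.34). Fos itself rose 1.62-fold (0.69 ± 0.11, adjusted p = 0.00848), and Jun, which pairs with Fos proteins on DNA, rose 1.36-fold (0.44 ± 0.06, adjusted p = 0.00443). The male prefrontal cortex had the highest Fos level in NP, 207 CPM, and the smallest ratio outside the hypothalamus, 0.36.

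Egr1 and Egr2, zinc finger factors induced by synaptic activity, had their larger ratios in hippocampus and female prefrontal cortex. Egr2 had ratios of 0.48, 1.70, 1.06, 1.53 and 0.19 and a fitted rise of 0.90 ± 0.15 (adjusted p = 0.0128). Egr1 (0.47 ± 0.08, adjusted p = 0.0153), Egr3 (0.60 ± 0.10) and Egr4 (0.66 ± 0.10) rose as well. The list's median ratio was 0.35, 0.47, 0.80, 0.33 and 0.21 over the 5 pairs, so female prefrontal cortex had the largest and hypothalamus the smallest value. Members that did not pass include Npas4 (0.60, adjusted p = 0.12), Junb (0.28, adjusted p = 0.28) and Ier2 (0.11, adjusted p = 0.81). Without the female prefrontal cortex pair 6 of the 26 were called, and without the male hippocampus pair 9. By the same test 0 of 18 neocortical and 0 of 16 hippocampal neuron markers were called, with medians of 0.03 and 0.07. Over all genes tested 1.34% were called, a share at which lists this short hold few or no calls.

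**Figure D1:**
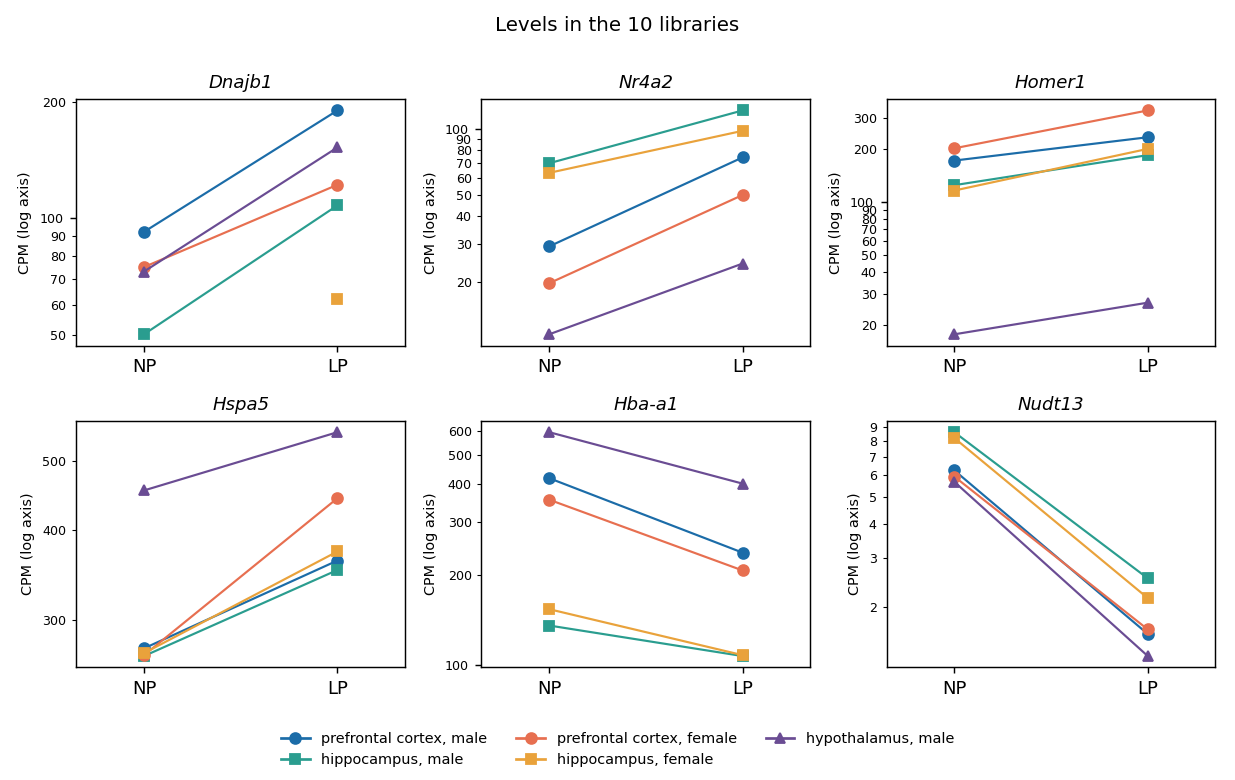
Levels of 6 genes in the 10 libraries, in CPM on log axes, with a line from the NP to the LP library of each pair (colour and symbol). Dnajb1 has no line for female hippocampus because its NP library does not measure that gene. Dnajb1, Nr4a2, Homer1 and Hspa5 go up and Hba-a1 and Nudt13 go down in every pair drawn.

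The promoters of these factors are shown because cyclic AMP signalling through the CREB protein is a known route to their induction. The 250 bases before the RefSeq start sites (GRCm38.p6) were searched on both strands. The full palindromic element TGACGTCA was found in 0 of the 12 called factors with a promoter in the table and in 1 of the 7 not called (Maff), against 1.77% of all 27025 genes. The shorter core TGACG, which occurs inside the full element, was searched only after those counts had been seen. It was present in 9 of the 12 called factors and in 5 of the 7 factors that were not called, against 19.8% of all genes. The core is thus about as frequent in factors that did not pass as in those that rose. The lines below give the stretch that spans the cores, in capitals, with 10 bases on either side, for Nr4a2 (chr2:57124100-57124213, minus strand), Nr4a3 (chr4:48045064-48045172), Fos (chr12:85473751-85473838) and Fosb (chr7:19310091-19310115, minus strand).
Nr4a2: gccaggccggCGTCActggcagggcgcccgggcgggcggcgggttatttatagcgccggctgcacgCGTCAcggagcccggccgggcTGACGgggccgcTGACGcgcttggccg
Nr4a3: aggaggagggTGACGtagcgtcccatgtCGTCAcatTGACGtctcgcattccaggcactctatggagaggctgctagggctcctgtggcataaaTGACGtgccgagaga
Fos: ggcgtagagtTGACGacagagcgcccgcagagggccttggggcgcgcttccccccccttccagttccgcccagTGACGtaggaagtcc
Fosb: gagttgcgggTGACGcaagcgcggg
Nr4a2 and Nr4a3 each hold 4 cores, counting CGTCA, the same letters on the other strand, and Fosb holds 1. A match describes letters and is not a measured binding site.

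Genes that carry the response to activity into synapses and signalling rose in part. Of 36 activity-induced effectors 11 rose and 0 fell, and 35 of 36 differences were above 0 (median 0.33). The share called higher was 30.6%, beside 0.935% of all genes tested. Homer1 encodes a scaffold of the postsynaptic density whose short form is induced by activity. It had 172, 125, 202, 116 and 17.7 CPM in NP and 233, 184, 331, 200 and 26.8 CPM in LP. Its 5 ratios lay between 0.44 and 0.78, a narrow range for this group, and the rise was 1.54-fold (0.62 ± 0.05, adjusted p = 5.8e-05). The counts do not separate its short and long forms.

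Arc, whose product removes AMPA receptors from synapses, went from 1100, 305, 462, 147 and 27.1 CPM to 1335, 549, 1090, 276 and 26.3 CPM. It was higher in 4 of 5 pairs, and the ratio was -0.04 in hypothalamus (fitted 0.70 ± 0.13, adjusted p = 0.0186). Gadd45b, a stress- and activity-induced gene linked to DNA demethylation, rose 1.66-fold (0.73 ± 0.12, adjusted p = 0.0129). The neurotrophin gene Bdnf (0.44 ± 0.09), the kinase gene Sik1 (0.53 ± 0.09) and the ERK inhibitor genes Spry2 (0.22 ± 0.05) and Spry4 (0.32 ± 0.06) rose less. Members that did not pass include Nptx2 (0.40, adjusted p = 0.073), Dusp1 (0.25, adjusted p = 0.45) and Sgk1 (-0.11, adjusted p = 0.46). Over the fits that leave out a pair, 3 to 18 effectors were called. The count was 3 without male hippocampus, 4 without female prefrontal cortex and 18 without hypothalamus. Homer1 and Gadd45b were called in all 5 of these fits.

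**Figure D2:**
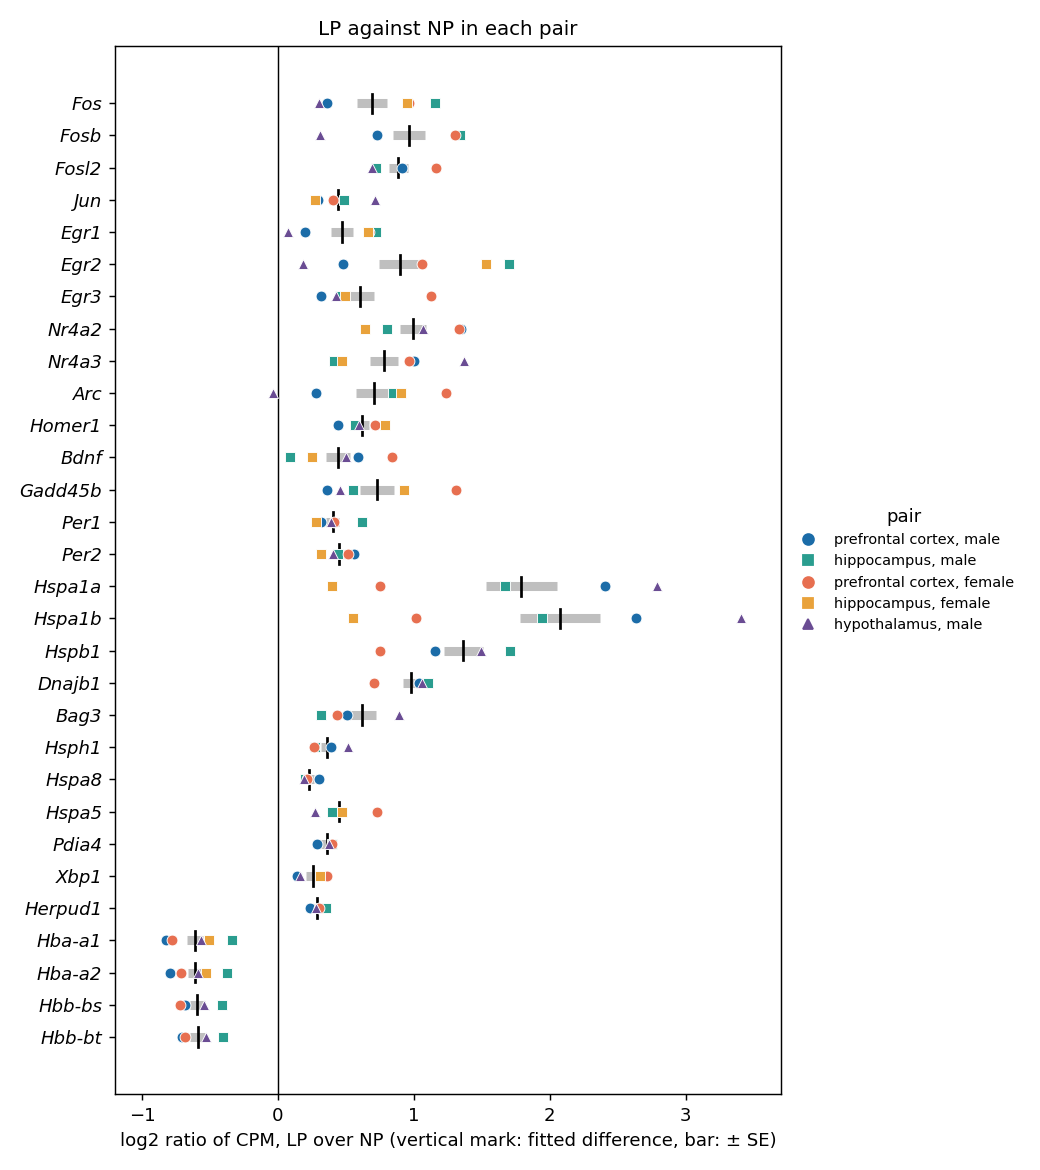
Log2 ratio of CPM, LP over NP, in each pair (coloured symbols) for 30 genes of the groups described, with the fitted difference (vertical mark) and ± its SE (grey bar). All symbols of the genes from Fos to Herpud1 lie right of 0 except the hypothalamic one of Arc, and all globin symbols lie left of it.

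Inducible cytosolic chaperones rose by up to 4.21-fold. Of 29 heat shock genes 9 rose, 0 fell and 20 did not pass (median 0.17, 26 of 29 above 0). The share called higher was 31%, beside 0.935% of all genes tested. Dnajb1, a J-domain partner of Hsp70 on chr8:83608193-83612653, had 92.3, 50.3, 74.9 and 73.0 CPM in the 4 NP libraries that measured it. It had 190, 108, 122 and 152 CPM in their LP partners. Its rise of 1.97-fold (log2 0.98 ± 0.06, 4 pairs) had the smallest adjusted p of the heat shock genes, 3.52e-06. The small heat shock gene Hspb1 went from 4.04, 1.43, 3.21 and 6.97 CPM to 9.17, 5.01, 5.52 and 19.9 CPM (1.36 ± 0.14, adjusted p = 0.000236). Hspb1 is 99.8% identical to Gm9817 over 477 bases, so its share of the reads is uncertain.

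The stress-inducible Hsp70 genes Hspa1a and Hspa1b had the largest fitted rises of this list. Hspa1b had 12.2, 22.9, 10.2, 24.3 and 12.0 CPM in NP and 76.8, 88.5, 20.9, 35.7 and 128 CPM in LP. The ratio was 2.63, 1.95 and 3.40 in the 3 male pairs and 1.02 and 0.55 in the 2 female pairs. A difference of the diet difference between the sexes was tested for every gene, as described below, and neither Hsp70 gene was among those called. The fitted rise was 4.21-fold for Hspa1b (2.08 ± 0.30, adjusted p = 0.00497) and 3.46-fold for Hspa1a (1.79 ± 0.26). These neighbours are 99.2% identical over 2201 bases, so their shares of the reads are uncertain. The constitutive Hsp70 gene Hspa8 showed a different picture. It stood at 1303, 1314, 1305 and 1322 CPM in the 4 NP libraries that measured it and at 1602, 1510, 1513 and 1510 CPM in their partners, with no overlap. That is a rise of 1.17-fold (0.23 ± 0.04, adjusted p = 0.012). The co-chaperone genes Bag3 (0.62 ± 0.10), Hsph1 (0.36 ± 0.05) and Dnajb5 (0.31 ± 0.05) rose as well. Hsp90aa1 (-0.02, adjusted p = 0.88), Hspd1 (0.08, adjusted p = 0.40) and the gene of the regulator Hsf1 (0.05, adjusted p = 0.74) did not pass. Between 7 and 9 members were called in each fit that left out a pair.

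Heat shock factor binds facing units of the letters GAA and TTC. An element of 3 alternating units, each 2 bases from the next, was searched on both strands in the 250 bases before the start. It was found in 0 of 8 called genes and in 3 of 15 genes of the list that did not pass (Dnajb6, Hspd1 and Hspe1), against 0.514% of all genes. Elements of 2 facing units (GAANNTTC or TTCNNGAA), searched after that count was seen, were present in 5 of 8 called genes and in 5 of 15 genes of the list that did not pass, against 14.5% of all genes. They are printed for 3 genes that rose, with the unit pairs in capitals: Hspa1b (chr17:34959325-34959352, minus strand), Hspb1 (chr5:135887792-135887839) and Hsph1 (chr5:149636352-149636379, minus strand).
Hspa1b: gaaactgctgGAAGATTCctggccccaa
Hspb1: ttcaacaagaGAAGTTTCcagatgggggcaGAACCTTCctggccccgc
Hsph1: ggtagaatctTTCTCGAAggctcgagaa

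Chaperones of the endoplasmic reticulum rose with smaller differences. Of 26 genes of this compartment 8 rose, 0 fell and 18 did not pass (median 0.16, 24 above 0). The share called higher was 30.8%, beside 0.935% of all genes tested. Hspa5, which encodes the chief Hsp70 of this compartment (BiP), had 274, 268, 268, 270 and 455 CPM in NP. It had 363, 352, 444, 374 and 548 CPM in LP, a rise of 1.37-fold (0.45 ± 0.05, adjusted p = 0.00111). In cortex and hippocampus the NP libraries lay between 268 and 274 CPM and their LP partners between 352 and 444 CPM, without overlap. Pdia4, a disulfide isomerase gene, rose by 0.36 ± 0.06 (adjusted p = 0.00557) with ratios from 0.29 to 0.40. Herpud1 (0.29 ± 0.05), the transcription factor gene Xbp1 (0.26 ± 0.05), Manf (0.30 ± 0.06), Sdf2l1 (0.52 ± 0.12), Pdia6 (0.20 ± 0.04) and Calr (0.18 ± 0.04) were also called. Of these, 1 was called without male hippocampus, 1 without female prefrontal cortex and 4 without female hippocampus. Hspa5 was called in all 5 fits without a pair and each of the others in 1 to 3. Ddit3, a gene of the later stress response (0.20, adjusted p = 0.22), and Hsp90b1 (0.10, adjusted p = 0.45) did not pass.

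The endoplasmic reticulum stress element is CCAAT and CCACG with 9 bases between them. In the same 250 bases, on both strands, it was found in 3 of 7 called genes (Hspa5, Calr and Pdia6) and in 4 of 13 that were not called, against 0.13% of all genes. It is printed in capitals, Calr carrying it on the opposite strand (Hspa5 chr2:34772015-34772053, Calr chr8:84847065-84847103 on the minus strand, Pdia6 chr12:17266481-17266519).
Hspa5: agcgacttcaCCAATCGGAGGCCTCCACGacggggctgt
Calr: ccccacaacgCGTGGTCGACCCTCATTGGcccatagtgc
Pdia6: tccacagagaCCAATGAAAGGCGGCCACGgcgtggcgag

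The amino acid response, through which cells adapt to a lack of amino acids by way of the factor ATF4, had 0 of 30 genes called in either direction by edgeR's quasi-likelihood test, beside 1.34% of all genes tested. Its median was 0.02, and the median ratio lay between 0.01 and 0.05 in the 5 pairs. Atf4 itself had ratios of 0.36, 0.29, 0.19, -0.04 and -0.04, and Atf5 had ratios between 0.06 and 0.12 in its 4 pairs. Of these 30 genes 6 had a ratio above 0 in every measured pair and 0 had one below 0 in every measured pair. Over all 17547 genes tested the counts were 1383 above 0 and 1311 below 0 in every measured pair.

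Globin transcripts were lower in LP in every pair. Of 5 red blood cell genes with enough counts 4 fell, beside 0.41% of all genes tested, and all 5 were negative (median -0.61). Hba-a1 had 418, 136, 355, 154 and 594 CPM in NP and 237, 107, 207, 108 and 401 CPM in LP, which is 1.53-fold lower in LP (-0.61 ± 0.06, adjusted p = 0.000216). Hbb-bs, which encodes a beta chain, fell by 0.59 ± 0.05 over 4 pairs (adjusted p = 6.59e-05). Hba-a2 and Hbb-bt gave -0.61 and -0.59. The alpha genes are 99.8% identical, so the division of reads between them is uncertain. In bulk tissue fewer cells and less transcript per cell cannot be told apart, here or for the markers that follow.

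Markers of other cell types moved less evenly. All 23 myelin and oligodendrocyte genes were below 0 (median -0.26), but the pair medians were -0.76, 0.04, -0.26, -0.16 and -0.38. The summed level of the 16 of these genes measured in all pairs was 2151, 4032, 1604, 4992 and 3566 CPM in NP and 1476, 4506, 1368, 4476 and 2715 CPM in LP. Opalin, a gene of mature oligodendrocytes, was the member that passed (-0.49 ± 0.10, adjusted p = 0.0332), and it was called in 1 of the 5 fits that left out a pair. Without the male hippocampus pair 7 members were called lower. Of 18 astrocyte and 18 microglia markers 0 were called (medians -0.06 and -0.04), beside 1.34% of all genes tested. The 18 smooth muscle, pericyte and meningeal markers had 0 called and a median of 0.49. Their median was 1.11 in hypothalamus, against -0.36, 0.10, 0.25 and -0.16 in the other pairs. The part of these cell type differences in the other gene groups was not tested.

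**Figure D3:**
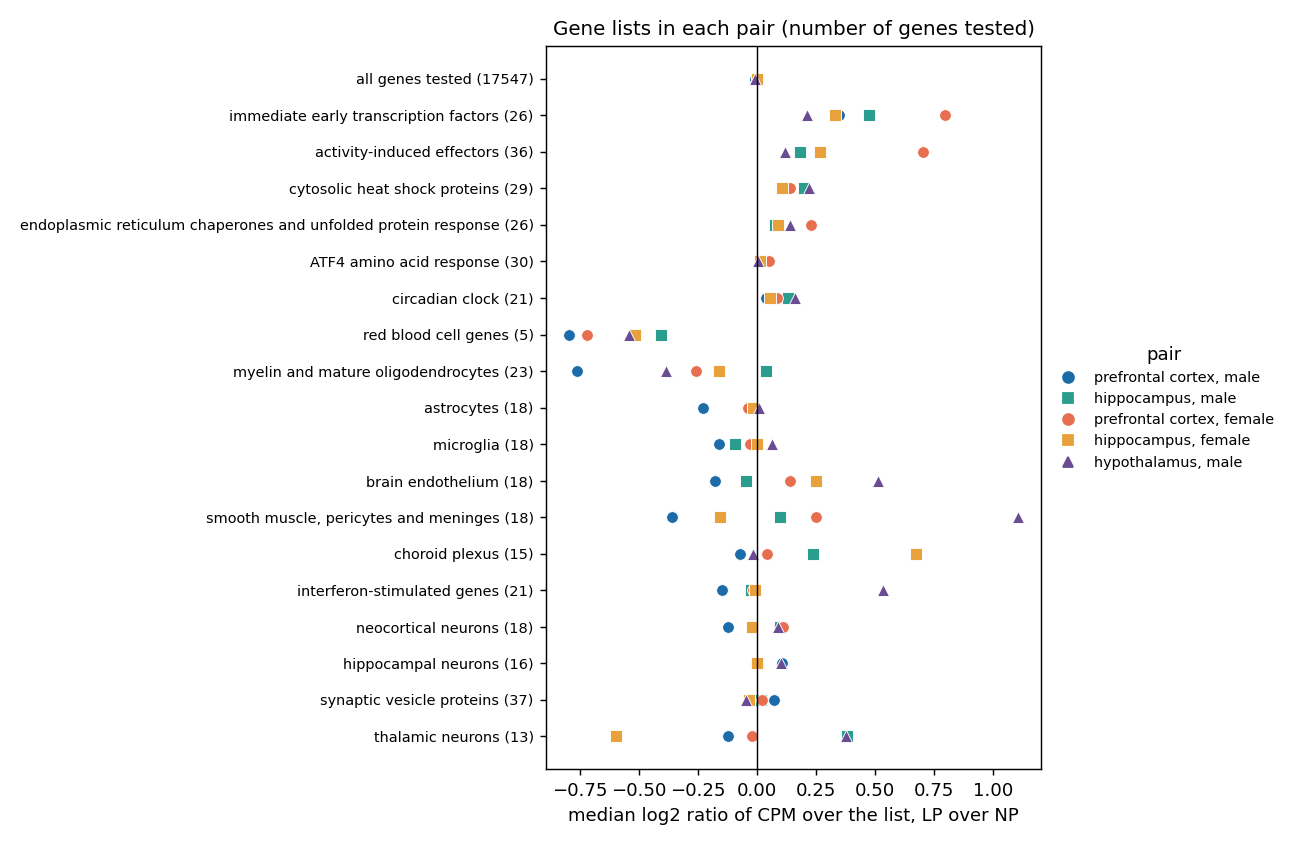
Median log2 ratio of CPM, LP over NP, of 18 gene lists and of all genes tested, in each pair (number of genes tested in brackets). Immediate early, effector and chaperone lists lie right of 0 and red blood cell genes left of 0 in all 5 pairs, while vascular markers are farthest right in hypothalamus, choroid plexus markers in the hippocampal pairs, and thalamic markers lie on both sides of 0.

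The period genes of the circadian clock were higher by similar amounts in all regions. Per2 had ratios of 0.56, 0.44, 0.51, 0.32 and 0.41 (fitted 0.45 ± 0.05, adjusted p = 0.000613). Per1 had ratios of 0.31, 0.62, 0.41, 0.28 and 0.39 (0.40 ± 0.05, adjusted p = 0.00115). Both genes also respond to neuronal activity and to glucocorticoids. The clock list had 3 of 21 members called higher (14.3%, beside 0.935% of all genes tested). The repressor gene Nfil3 was the third (0.43 ± 0.08, adjusted p = 0.023) and was called in 1 of the 5 fits without a pair. Nfil3 is also among the called immediate early factors. Of 22 corticosteroid receptors and glucocorticoid targets 3 were higher (13.6%), namely Per1, Errfi1 and Zbtb16. Per1 is also a clock gene of the list above and Errfi1 a called activity-induced effector, so these groups are not separate. In this list 1 was called higher without male hippocampus, 2 without female prefrontal cortex and 5 without male prefrontal cortex. The metallothionein gene Mt2 was lower (-0.47 ± 0.10, adjusted p = 0.035), in 3 of 4 pairs and not in female prefrontal cortex (0.06). Cirbp, a cold-inducible RNA-binding protein gene, had 78.4, 65.7, 71.9, 61.7 and 116 CPM in NP and 63.5, 49.5, 65.5, 48.6 and 90.1 CPM in LP. It fell by 0.31 ± 0.05 (adjusted p = 0.00848), and the call was lost without male hippocampus. Over the 51 RNA-binding and splicing genes 1 rose, 2 fell and the median was close to 0 (5.88% called, beside 1.34% of all genes tested).

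Single genes of metabolism and transport rose. Irs2, which links the insulin and IGF receptors to their signalling, had 96.3, 98.7, 93.5 and 77.2 CPM in 4 NP libraries and 155, 126, 196 and 99.2 CPM in their LP partners (0.62 ± 0.09, adjusted p = 0.00511). It was the 1 called of 36 insulin, IGF, leptin and mTOR genes (2.78%, beside 1.34% of all genes tested). Of 17 hypoxia response genes 2 were higher, Slc2a1 and P4ha1 (11.8%). Slc2a1, the glucose transporter gene of the blood-brain barrier, rose by 0.30 ± 0.05 (adjusted p = 0.00774), and the call was lost without female prefrontal cortex. P4ha1, a collagen prolyl hydroxylase gene induced by hypoxia, rose 1.33-fold (0.41 ± 0.05, adjusted p = 0.00174) and was called in all 5 fits without a pair.

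The calls that rested least on any pair were those present in all 5 fits that left out a pair in turn. There were 50, of which 35 were higher and 15 lower, and 13 of the 236 were called in none. Genes that rest on 4 pairs lost a pair in only 4 of these 5 fits, since the fit without female hippocampus takes none from them. Some of the 50 belong to no list and were picked from their values. Ak4, a mitochondrial adenylate kinase gene, had 63.8, 65.3, 73.0, 66.0 and 49.7 CPM in NP and 76.8, 79.5, 90.4, 82.5 and 57.6 CPM in LP. Its ratios spanned 0.21 to 0.32 (fitted 0.28 ± 0.04, adjusted p = 0.00762). Dio2, the deiodinase gene that activates thyroid hormone in astrocytes and tanycytes, rose 1.41-fold (0.50 ± 0.08, adjusted p = 0.00672). Kcnj16, an inwardly rectifying potassium channel gene, rose 1.59-fold (0.67 ± 0.11, adjusted p = 0.00882). Tob1, an antiproliferative gene, rose 1.29-fold (0.37 ± 0.05), and Gfod1 rose 1.27-fold (0.34 ± 0.04). Tnfrsf25, a receptor gene of the tumour necrosis factor family, rose from 16.1, 22.2, 15.9 and 1.36 CPM to 29.8, 39.9, 23.4 and 1.99 CPM (0.77 ± 0.09, adjusted p = 0.000714).

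Some small differences also had similar ratios in the pairs that measured them. Mat2a, which encodes the enzyme that makes the methyl donor S-adenosylmethionine, had 217, 206, 208 and 212 CPM in NP and 257, 238, 243 and 237 CPM in the LP partners. The groups do not overlap, and the ratios lay between 0.16 and 0.24 (0.21 ± 0.04, adjusted p = 0.0316). The ETS repressor gene Erf (0.28 ± 0.06) had ratios between 0.24 and 0.34. Htatsf1 (-0.26 ± 0.06) and Hnrnpdl (-0.20 ± 0.04), both linked to RNA processing, fell in each of their 4 pairs. These 4 genes had the narrowest ranges of ratios among called genes of at least 10 CPM, together with Hspa8, and were picked by that range. All 5 rest on 4 pairs, and a range over fewer pairs tends to be narrower. Mat2a, Erf, Htatsf1 and Hnrnpdl were each called in 2 of the 5 fits without a pair. For these genes 1 of those 2 fits, without female hippocampus, takes out no pair. The calls of Mat2a and Erf were lost without each of the first 3 pairs.

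The lower genes were led by transcripts at a few CPM. Nudt13, a mitochondrial Nudix hydrolase gene on chr14:20294697-20317578, had 6.24, 8.59, 5.93, 8.18 and 5.67 CPM in NP. In LP it had 1.59, 2.53, 1.65, 2.15 and 1.32 CPM, with no overlap. It was 3.76-fold lower in LP (-1.91 ± 0.14, adjusted p = 2.19e-05), and its ratios differed by 0.28 at most, from -1.70 to -1.98. No other transcript of the annotation was at least 95% identical to it over 200 bases. The other 20 Nudix genes tested had 0 calls, beside 1.34% of all genes tested.

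Capn11, a calpain protease gene known from testis, had 55, 62 and 82 counts in the 3 male NP libraries but 10 and 11 in the 2 female ones. In LP it had 10, 3 and 20 counts in males and 4 and 1 in females. It was 5.66-fold lower in LP (SE 0.29 on the log2 scale, adjusted p = 0.000764). Enam, the gene of a tooth enamel protein, had 14, 17, 11 and 21 counts in 4 NP libraries and 2, 3, 3 and 2 in their partners (-2.57 ± 0.38, adjusted p = 0.00465). Enam in LP and Capn11 in LP and in females lie near the detection limit, where 3 counts are 0.18 to 0.38 CPM. Adam5 also passed (-3.28 ± 0.57, adjusted p = 0.00848), but its value came from male hippocampus alone, with 144 counts in NP and 2 in LP, and the call was lost without that pair.

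Several of the steadiest differences were in genes with a near-identical copy, where counting decides which copy a read is given to. Ndufs5, a complex I subunit gene, had 45.4, 41.9, 52.6, 37.0 and 46.5 CPM in NP and 26.1, 23.5, 29.6, 25.7 and 24.1 CPM in LP (-0.80 ± 0.06, adjusted p = 5.36e-05). BC002163, its copy on chromosome 16, is 99.4% identical to it and moved the other way (0.57 ± 0.05, adjusted p = 9.82e-05). The sum of both copies was 84.5 to 110.6 CPM in NP and 94.1 to 113.3 CPM in LP. The share of Ndufs5 in that sum was 43.0% to 49.7% in NP and 23.5% to 26.4% in LP, with no overlap in any region or sex. None of the other 36 complex I subunit genes was called, beside 1.34% of all genes tested.

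Glns-ps1, a pseudogene 96.8% identical to the glutamine synthetase gene Glul, rose by 1.10 ± 0.10 (adjusted p = 0.00014), and its share of their sum was 0.90% to 1.71% in NP and 3.19% to 3.49% in LP. Glul itself was not called (-0.16, adjusted p = 0.12). Gm10704, 98.6% identical to Rtraf, had 54, 48, 35, 55 and 74 counts in NP and 8, 0, 1, 1 and 2 in LP. Rtraf was not called (0.05, adjusted p = 0.69). Gm11892, a tubulin pseudogene, is less close to its best match Tubb5 (87.4% identical). It had 2, 0, 0, 0 and 2 counts in NP and 30, 33, 17, 18 and 73 in LP. A fold against so few counts depends on the prior count and is not given. In all, 21 of 1234 pseudogenes tested were called (1.7%), against 1.4% of 14805 protein-coding genes.

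**Figure D4:**
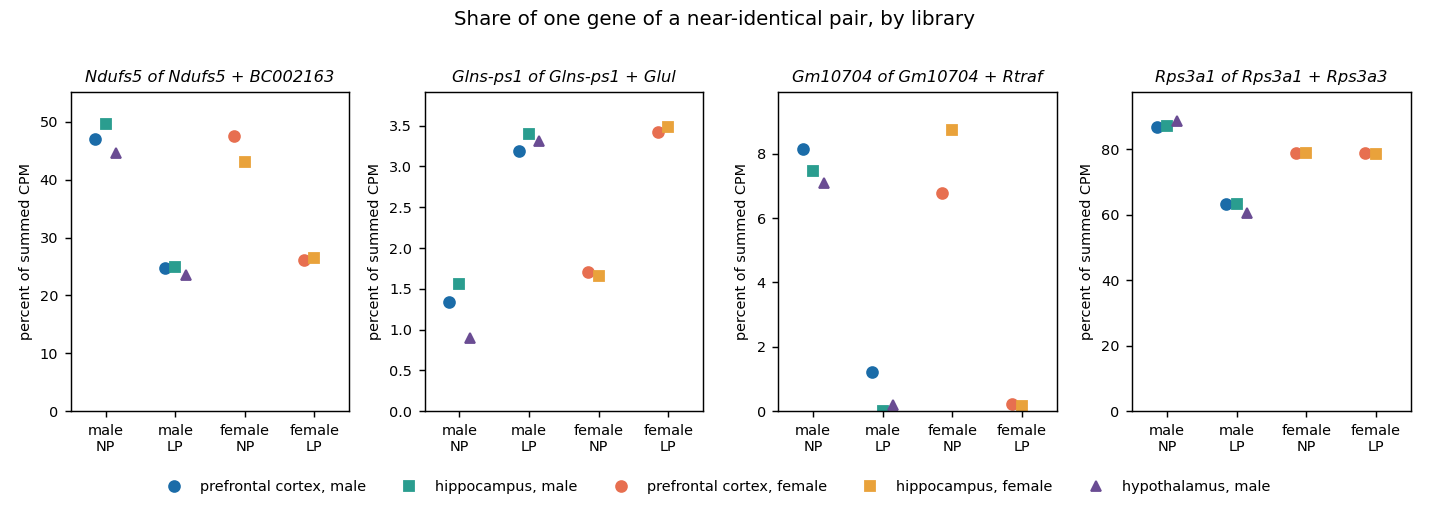
Share of the first gene in the summed CPM of a near-identical gene pair, in percent, by sex and diet, with a symbol for each library. The regions of a sex and diet lie close together, and whether they share animals was not tested. The first 3 panels separate LP from NP in both sexes, while Rps3a1 separates the diets in males and not in females.

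Called genes with a shared direction often had a called neighbour of the same direction. This held for 57 of 207 (27.5%) within 1 Mb, against 13.4% of genes that were not called. The 57 include adjacent near-identical copies whose reads are not independent, such as Hba-a1 and Hba-a2 or Hspa1a and Hspa1b. The share without such copies was not computed, so 27.5% does not count separate places in the genome. On chromosome 3, 6 of 48 genes tested between 87525407 and 88910103 were higher: Etv3, Nes, Khdc4, 5830417I10Rik, 1500004A13Rik and Gon4l. Inside this stretch 2 genes were called lower, among them Gm10704. The last 3 of the 6 overlap or share sequence (5830417I10Rik is 99.0% identical to Gon4l over 2893 bases), so their reads are not independent. 5830417I10Rik rose by 0.72 ± 0.07, and in each library it took 21.7% to 25.0% (NP) or 27.6% to 31.6% (LP) of its sum with Gon4l. Chromosome 17 had Hspa1b, Hspa1a and the class I antigen presentation gene H2-D1 within 0.31 Mb. H2-D1 had 18.4, 15.4, 25.0, 23.1 and 27.8 CPM in NP and 36.1, 33.8, 36.9, 37.8 and 104 CPM in LP, without overlap (1.15 ± 0.16, adjusted p = 0.00334). H2-D1 is at least 95% identical to H2-Q7 over 200 bases or more, so its share of the reads is uncertain. It was 1 of 2 called among 19 antigen presentation genes, and 0 of 21 interferon-stimulated genes were called, beside 1.34% of all genes tested. In hypothalamus the H2-D1 difference was larger than in the other pairs by 1.07 (adjusted p = 0.010). In that pair 18 of 19 antigen presentation genes (median ratio 0.33) and 21 of 21 interferon-stimulated genes (median 0.54) were above 0. In the other pairs the medians lay between -0.11 and 0.06 and between -0.15 and -0.01.

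At the start of chromosome 14 there were 2 stretches of lower genes. The first held Gm2897, Gm10340, Gm3005 and Gm2974, and the second Gm3194, Gm3383 and Gm3411. They belong to a family of predicted genes with many copies: 44 other genes were at least 95% identical to Gm10340 over 200 bases or more, and 46 to Gm3411. Gm3411 had 4.35, 5.04, 3.63, 5.08 and 9.66 CPM in NP and 1.59, 2.14, 2.17, 2.95 and 4.63 CPM in LP (-1.06 ± 0.14, adjusted p = 0.0029). In the first stretch 2 members, D830030K20Rik (0.86) and Gm3033 (0.99), were called higher. Values of single members of this family are uncertain for the same reason.

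Whether the diet difference differed between the sexes was tested over all 5 pairs. The test called 7 of 17547 genes (0.0399%), 6 with the larger value in females and 1 with the smaller. Gm5421, a pseudogene, had 79, 85 and 97 counts in the 3 male NP libraries and 19, 20 and 18 in the male LP libraries. In females it had 18 and 49 counts in NP and 70 and 85 in LP (difference of differences 3.49, adjusted p = 0.00557). The ribosomal protein gene Rps3a1 and its copy Rps3a3 went opposite ways in males: the share of Rps3a1 in their sum was 86.7% to 88.7% in male NP and 60.6% to 63.3% in male LP. In females it was 78.8% to 78.9% in NP and 78.5% to 78.8% in LP. The shares were thus similar over the regions of a sex and diet. Whether those regions share animals was not tested, and if they do, the p-values over pairs are too small. Gm13443, a copy of Glo1, was also called (1.39, adjusted p = 0.00417). By edgeR 0 genes passed without female prefrontal cortex or without female hippocampus (351 and 402 genes at an unadjusted p below 0.05), 13 passed without male hippocampus and 44 without hypothalamus. DESeq2 called 11 with all pairs.

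The hypothalamic pair differed from the others in 97 genes (0.553%), 83 with a larger and 14 with a smaller value. Several of those with the smallest p-values are genes of vessel walls and their matrix. Fn1, the fibronectin gene, had ratios of 0.15, 0.30, 0.30, 0.24 and 1.40 (hypothalamus minus the others 1.16, adjusted p = 0.000583). The smooth muscle actin gene Acta2 had -0.06, -0.26, -0.56, -0.16 and 1.74 (1.99, adjusted p = 0.000583). The matrix genes Bgn (1.17) and Eln (1.30) and the smooth muscle genes Tagln (1.56) and Myh11 (1.94) had differences of the same direction. Cyp26b1, which degrades retinoic acid, had a difference of 1.89.

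Genes with the smaller hypothalamic value include the transcription factor genes Meis2 (-1.82), Lhx6 (-1.94) and Tbr1 (-2.35). The lists of neocortical and hippocampal neuron markers had medians of 0.09 and 0.10 in this pair. The summed level of 11 smooth muscle, pericyte and meningeal markers was 394 CPM in the NP and 859 CPM in the LP hypothalamus, while the other 8 libraries lay between 209 and 308 CPM. The LP hypothalamus library carries a different middle number in its sample name, which the labels do not explain. There is 1 hypothalamic library of each diet, so an effect of diet on this region and a difference in the tissue taken cannot be told apart. DESeq2 called 21 genes in this test, and edgeR called 170 without male hippocampus and 196 without female prefrontal cortex.

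**Figure D5:**
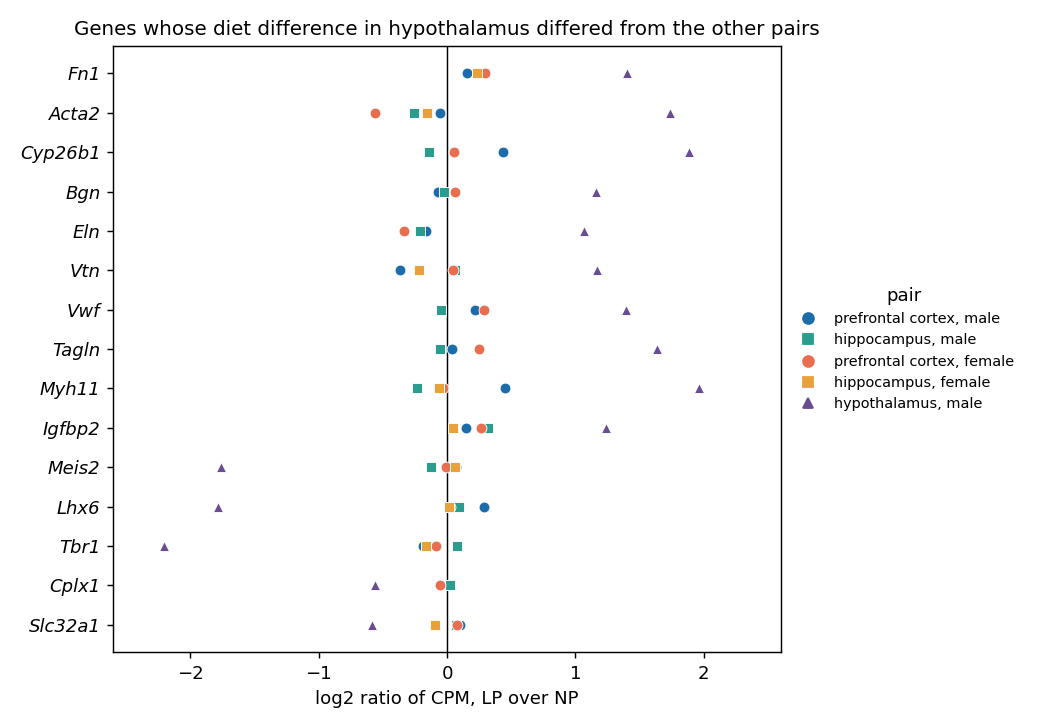
Log2 ratio of CPM, LP over NP, in each pair for 15 genes whose diet difference in hypothalamus differed from that in the other pairs. The hypothalamic triangle stands apart from the other symbols, to the right for the 10 genes from Fn1 to Igfbp2 and to the left for the 5 from Meis2 to Slc32a1.

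The same pair bore on calls of the test over all pairs. Of the 29 called genes without a common sign, 15 had over 75% of their summed CPM in hypothalamus. Hcrt, the orexin precursor gene, had 1523 counts in the NP and 290 in the LP hypothalamus and 0 to 6 elsewhere. Its fitted value of -2.22 ± 0.17 therefore describes 1 pair. The vasopressin gene Avp (5402 and 2578 counts), the oxytocin gene Oxt (3589 and 1459) and the dopamine transporter gene Slc6a3 (97 and 779) are of the same kind. Without the hypothalamus Oxt stood at 1.28 and Slc6a3 at -0.60, on a few counts. The pituitary hormone genes Gh and Prl were called lower but moved in opposite directions: Gh had 5319 counts in NP and 5 in LP in male hippocampus, and 2 and 58 in female hippocampus. Ttr, the transthyretin gene of the choroid plexus, had ratios of -0.73, 1.01, 0.09, 2.20 and -0.43 (fitted 1.37 ± 0.24, adjusted p = 0.015). For each of these genes the pairs did not share a sign.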

How the data were processed

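Per the submitters' processing notes, CASAVA, FastQC 0.10.1 and STAR 2.5.0a were used with the mm10 build. The authors deposited a table of unnormalized read counts, with Ensembl genes in rows and libraries in columns. For counting, the tool, strand setting and treatment of reads that fit several genes were not given in the sources used here. Names and coordinates came from GENCODE M21 (GRCm38), which matched 47310 of 47729 genes. The female NP hippocampus column has 0 in 4480 of 4481 expressed genes past the break, so 19598 genes were treated as not measured in it, and the reason is not known.

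Genes were kept with filterByExpr (minimum count 10) and libraries scaled by TMM. The test was the quasi-likelihood F test of edgeR 4.0.16 (R 4.3.3) with pair and diet as terms and Benjamini-Hochberg adjustment over 17547 genes. The 11433 genes measured in all libraries were fitted on 10 libraries (4 residual degrees of freedom) and 6114 on the other 9. Ratios of a single pair use a prior count of 2. The pairing comes from the labels of region and sex. Deviations of paired libraries from their diet's mean correlated at 0.90 to 0.96 over 7064 genes, and in 2 of the 5 pairs a library correlated slightly more with one of another pair. Alternatives used DESeq2 1.42.0 and limma 3.58.1. The fits were tested on simulated data.

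The members and the 45 gene lists were chosen with earlier results of these data known. Genes were named by rule. It took the 15 smallest p-values in each direction with a shared sign and at least 1 CPM, and up to 4 called members of each list (else its first 2). It added the 5 narrowest and 5 widest ranges at 10 CPM or more, and up to 3 genes per direction of each interaction. Other genes printed are list members, near-identical copies, neighbours in a stretch or genes of the interaction tests, chosen after their values were seen. Total counts per library were 7871010 to 16265481. A count of 0 allows up to 3 counts, counting error only. Some genes are not reported here.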

Additional observations from a re-analysis of the deposited data

Results flagged for a closer look

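In each of the 72 named genes called over the pairs, the pair ratios were examined for a value far from the rest. 5 genes had such a value, and chance gives about 1 in 20 groups. Dnajb1 was at 0.70 in female prefrontal cortex while its other 3 ratios lay between 1.04 and 1.10. Gm5566 was at -0.60 in the same pair, with the others between -3.23 and -2.88. Glns-ps1 was at 1.77 in hypothalamus, above 0.88 to 1.09 elsewhere. Slc6a3 was at 3.11 in hypothalamus, with the others between -1.05 and 0.03. Adam5 was at -5.28 in male hippocampus, with the others between -0.72 and -0.07.

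The diet difference itself differed between the sexes for 5 named genes. The female minus male value was 0.77 for Rps3a1, 1.39 for Gm13443, 3.49 for Gm5421 and -1.30 for Rps3a3. These 4 have near-identical copies elsewhere, and the part of the copies in these values was not tested. The value was 14.25 for Prl, which had 0 counts in both female NP libraries, so its size depends on the prior count. The hypothalamic pair minus the others gave 1.16 for Fn1, 1.99 for Acta2, 1.89 for Cyp26b1, 1.07 for H2-D1 and 0.79 for Pdgfrb, a pericyte receptor gene. It gave -2.35 for Tbr1, -1.82 for Meis2, -1.94 for Lhx6 and -0.56 for Cplx1, a complexin gene of the presynapse. Vessel wall markers were higher in the same LP hypothalamus library, as given above.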

How the results depend on the processing

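The number of genes called over the pairs was 236 (164 higher, 72 lower) and moved most with the design. With DESeq2 it was 115 (87 higher, 28 lower), of which 111 were among the 236. With the counts of cortex and hippocampus summed within sex and diet, an alternative chosen after seeing the data, it was 618 (336 higher, 282 lower). The sum was made only for genes measured in all libraries. For genes that rest on 4 pairs this fit used the prefrontal cortex libraries alone. Leaving out a pair gave 95 to 354 calls, 59 to 189 of them higher and 36 to 165 lower. Without the replicate block, that is ignoring the pairing by region and sex, 4 genes passed (1 higher, 3 lower). RLE size factors (244), no low-count filter (172), edgeR's earlier quasi-likelihood method (186), additive terms for region and sex (318) and limma-voom (231) stayed within 1.5 times. The median difference over all genes was between -0.0113 and 0.00231 in all these fits. Of the 72 named genes that were called, 72 kept their call with RLE, 71 with additive terms, 69 with limma-voom, 66 with the earlier method, 58 without the filter, 47 with DESeq2, 64 with summed regions, 46 to 63 without a pair and 3 without the replicate block. Oxt turned to 0.597 with DESeq2, 1.28 without hypothalamus and 1.34 with summed regions, and Slc6a3 turned to -0.602 and -0.594 in the last 2 of these. Over the fits that left out a pair Oxt ran from -1.12 to 1.28 and Slc6a3 from -0.60 to 3.00.

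For the difference between the sexes DESeq2 called 11 genes (8 higher, 3 lower), and leaving out a pair gave 0 to 44 (0 to 27 higher, 0 to 17 lower). For hypothalamus against the other pairs DESeq2 called 21 (13 higher, 8 lower), no low-count filter 38 (31 higher, 7 lower), and leaving out a pair 101 to 196 (78 to 166 higher, 14 to 33 lower). The fit without the hypothalamic pair could not be made. The causes were not tested. Fewer than 3 counts per library, up to 0.38 CPM, could not be told from 0.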

Other observations

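Counts for other gene groups stand beside 1.34% called over all genes tested. Of 18 DNA methylation genes 2 were higher, the methylcytosine dioxygenase gene Tet3 (0.32 ± 0.07, adjusted p = 0.039) and Gadd45b, and of 51 histone acetylation and methylation enzymes 1 was higher, the H3K27 demethylase gene Kdm6b (0.46 ± 0.08, adjusted p = 0.021). Among 36 imprinted genes Mest was higher (0.38 ± 0.08). Each of Tet3, Kdm6b and Mest lost its call in at least 2 of the 5 fits without a pair. Gadd45b and Kdm6b are also among the called activity-induced effectors. Of 79 cytosolic ribosomal protein genes 3 were lower (Rpl21, Rpl38 and Rps3a1), with a median of -0.05. With DESeq2 and without the low-count filter 0 of them were called, and each was called in 2 of the 5 fits without a pair. The 48 listed potassium channel pore genes and 37 synaptic vesicle genes had 0 calls by edgeR and medians of -0.01 and 0.01. The potassium channel gene Kcnj16, called higher as given above, is not on that list.

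Thalamic markers, which are not part of the tissues named in the labels, went opposite ways in the hippocampal pairs. The median ratio was 0.38 over 13 such genes in males and -0.60 over the 10 measured in females, and the summed level of 10 of them was 253 and 286 CPM (NP, LP) in males and 407 and 307 CPM in females. Choroid plexus markers were higher in both LP hippocampus libraries, with 451 against 299 CPM in males and 428 against 242 CPM in females for 8 genes summed.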
